A study of Mus musculus with 4 samples.

Results

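The genes described here are 8 antimicrobial, acute-phase and receptor genes of monocytes and other myeloid cells: Plac8, Lyz1, Lyz2, Hp, Saa3, Chil3, Mcemp1 and Trem1. They are 8 of the 12596 genes in the table of colon macrophages from mice given diesel exhaust particles (DEP) or PBS, and all 8 were in the table. They were chosen by values measured in these same libraries, namely the difference in level upon DEP exposure over all cells and the level in monocyte-like cells. Levels by exposure and by cell class are therefore given as descriptions, and no p-value is printed for a member.

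Single cells came from the colonic lamina propria of 4 male C57/Bl6N mice, 2 exposed to DEP (mice 14 and 15) and 2 to PBS (mice 2 and 3). Gavages held 12 µg of DEP in 200 µL PBS, or that volume of PBS without particles, and were given 5 days per week for about 6 months. Cells were sorted as Cd11b+ and positive for Ly6c2 or Cd64, so that monocytes and macrophages entered the same well. Every mouse had a well of its own in a single batch, and the sequencing experiment was carried out once. A difference between wells therefore cannot be told apart from one between mice. The assay captures the 3′ ends of transcripts and counts molecules by unique molecular identifiers (UMIs), so that levels are given as CPM, the UMIs of a gene scaled to 1000000 UMIs of the same cells.

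Monocytes enter the colon from the blood and lose Ly6c2 and Ccr2 as they mature into macrophages, which come to express the complement genes C1qa, C1qb and C1qc. Monocytes carry a ready-made set of defence genes, while resident macrophages of the gut are specialised in uptake and tissue upkeep. Lysozyme, encoded by Lyz1 and Lyz2 in the mouse, cleaves bacterial cell walls, and haptoglobin (Hp) binds free haemoglobin. Saa3 encodes an acute-phase serum amyloid A made outside the liver. Chil3 encodes a chitinase-like secreted protein, Plac8 a small cysteine-rich protein of myeloid cells, and Mcemp1 a membrane protein of myeloid cells. Trem1 is a receptor that amplifies inflammatory signalling through the adaptor Tyrobp.

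The members lie on 6 chromosomes (GRCm38), with the 2 lysozyme genes side by side. Lyz2 (chr10:117277331-117282321, minus strand) and Lyz1 (chr10:117287797-117292868, minus strand) are 5475 bases apart, and both are protein coding. Of the 50-base windows in the last 500 bases of the longest Lyz1 transcript, 17.7% occurred unchanged in Lyz2, and 16.9% the other way. The assay reads this 3′ end, so that the division of reads between Lyz1 and Lyz2 is uncertain there. Plac8 (chr5:100553725-100572245, minus strand), Hp (chr8:109575128-109579172, minus strand), Saa3 (chr7:46711998-46715700, minus strand) and Chil3 (chr3:106147554-106167564, minus strand) are single genes in this set, as are Mcemp1 (chr8:3665754-3669259, plus strand) and Trem1 (chr17:48232768-48246924, plus strand).

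Promoters were taken from RefSeq (GRCm38.p6), where 7 of the 8 members matched an entry, Hp being the other one. The 250 bases before the start are printed in the direction of the gene for the 2 lysozyme genes, which are near copies of each other, for Saa3, which few cells carried at high level, and for Plac8, which most C1q-low cells carried. Capitals mark matches to TTGCNNAA, a core sequence bound by the C/EBP factors of myeloid cells, searched on both strands. They span chr10:117292869-117293118 for Lyz1, chr10:117282273-117282522 for Lyz2, chr7:46715677-46715926 for Saa3 and chr5:100572206-100572455 for the first of 2 Plac8 entries, all on the minus strand.
Lyz1: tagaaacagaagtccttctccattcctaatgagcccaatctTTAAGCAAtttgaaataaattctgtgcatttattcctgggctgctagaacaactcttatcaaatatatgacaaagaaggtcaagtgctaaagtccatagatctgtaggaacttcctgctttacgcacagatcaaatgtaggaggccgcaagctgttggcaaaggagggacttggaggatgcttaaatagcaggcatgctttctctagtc
Lyz2: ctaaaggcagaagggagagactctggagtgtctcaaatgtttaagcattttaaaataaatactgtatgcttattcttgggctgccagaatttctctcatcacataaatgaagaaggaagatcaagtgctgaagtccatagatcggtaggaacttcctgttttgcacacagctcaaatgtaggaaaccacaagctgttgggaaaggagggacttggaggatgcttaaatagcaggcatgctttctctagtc
Saa3: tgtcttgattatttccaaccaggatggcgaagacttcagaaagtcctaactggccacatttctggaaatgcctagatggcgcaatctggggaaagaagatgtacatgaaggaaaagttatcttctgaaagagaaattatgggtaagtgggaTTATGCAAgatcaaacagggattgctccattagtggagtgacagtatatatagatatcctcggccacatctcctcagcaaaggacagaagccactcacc
Plac8: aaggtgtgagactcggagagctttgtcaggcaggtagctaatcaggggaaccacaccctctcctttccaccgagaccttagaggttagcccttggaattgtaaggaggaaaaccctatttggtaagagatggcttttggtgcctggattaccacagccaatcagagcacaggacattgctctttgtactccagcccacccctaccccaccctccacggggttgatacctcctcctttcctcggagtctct

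The lysozyme promoters aligned with 200 identical positions of 252 (79.4%). The motif was found in the Lyz1 window, 209 bases before the start, and in no place of the Lyz2 window. In the Saa3 window it lay 99 bases before the start. The first Plac8 window held none, and the second, which belongs to a start further inside the gene, held 1 match at 12 bases. Chil3, Mcemp1 and Trem1 held none in these letters. Among 32851 mouse promoters of this length, 9.56% held the motif. GAGGAA, a core sequence of the myeloid factor PU.1, was found 2 times in the first Plac8 window and 1 time in that of Trem1, and in 23.3% of all promoters.

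The table held 943 cells, 189 and 334 from DEP mice 14 and 15 and 200 and 220 from PBS mice 2 and 3, with 747351 to 1349134 UMIs per mouse. Cells were divided by the summed share of C1qa, C1qb and C1qc in their UMIs into C1q-low (under 0.3%, 168 cells), middle (65 cells) and C1q-high (1% or more, 710 cells). Of the C1q-low cells 21 lay between 0.1% and 0.3%. Cells with UMIs of at least 3 markers of B or plasma, T, natural killer, epithelial or stromal cells were left out of the tests, which left 646 retained cells. That rule removed 41.8% and 41.0% of the cells of the DEP mice but 15% and 23% of those of the PBS mice. It removed 242 C1q-high cells as B or plasma cells, and the immunoglobulin and J chain genes Igkc, Igha and Jchain made up 2.14% and 2.99% of all UMIs of the DEP mice and 0.127% and 0.838% of those of the PBS mice. Values are therefore also given over all 943 cells, and over 914 cells, a set chosen after the data were seen. It leaves out 12 C1q-low cells that carried B or plasma cell markers other than immunoglobulins, together with the 6 T, 2 natural killer, 5 epithelial and 4 stromal cells. One cell barcode was shared by 2 libraries.

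Markers of the cell classes matched their names. In C1q-low against C1q-high retained cells of the same mice, 14 of 15 tested monocyte markers were called higher (edgeR, adjusted p of at most 0.05), with a median log2 difference of 3.27 against −0.13 over all genes. All 13 macrophage markers were called lower, with a median of −3.13. This list holds C1qa, C1qb and C1qc, which defined the classes, so that their calls were fixed in advance. Of 13 neutrophil markers 6 were analysed, and their summed level in C1q-low cells of the full table was 147 to 177 CPM in DEP and 241 to 307 in PBS mice. In C1q-high cells it was 51.0 to 54.1 and 37.8 to 43.7. Mmp9 and Ngp were at 0 in C1q-low cells, whereas Cd177 read 99.2 CPM in C1q-low and 0 in C1q-high cells and Mmp8 37.2 and 1.46. Neutrophils share several of the members, and their part in the results was not tested. Dendritic cell markers, 6 of 9 analysed, summed to 125 to 273 in DEP and 55.8 to 199 in PBS mice in C1q-low cells. In C1q-high cells their sums were 21.6 to 34.3 and 23.4 to 34.8. Cd209a read 105 CPM in C1q-low and 8.47 in C1q-high cells and Ccr7 69.1 and 12.3, whereas Siglech read 1.77 and 5.84. Clec9a was at 0 in C1q-low cells. B or plasma cell markers summed to 105453 to 130953 in the C1q-low cells of the DEP mice and to 865 to 1007 in those of the PBS mice.

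Of the members 6, all but Saa3 and Trem1, had a UMI in 5% of cells and could be tested between the classes. All 6 of these were called higher in C1q-low than in C1q-high cells, against 7.14% of 5182 genes called higher in that direction and 17.6% called in either direction. The level in monocyte-like cells helped to choose the members, and nothing is read from these calls. The 6 fell into 2 sets by the size of the difference. Plac8, Hp, Chil3 and Mcemp1 were 5.08 ± 0.16, 5.83 ± 0.30, 5.38 ± 0.33 and 5.16 ± 0.32 higher on the log2 scale (± SE), whereas Lyz2 and Lyz1 were 1.16 ± 0.12 and 0.78 ± 0.20 higher. Lyz1 was not called with DESeq2, with cells thinned to 1000 UMIs or without PBS mouse 3 (0.76, 0.55 and 0.45).

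Plac8 was a gene of C1q-low cells in every mouse. In retained cells it reached 5761 and 4669.9 CPM in the C1q-low cells of DEP mice 14 and 15, and 3540.1 and 3983 in those of PBS mice 2 and 3. C1q-high cells held 169 and 131 in the DEP mice and 85.3 and 58.1 in the PBS mice. The ratio between the classes thus ran from 34.1 in DEP mouse 14 to 68.5 in PBS mouse 3. Over all 943 cells, 76.5% of the 2704 Plac8 UMIs lay in C1q-low cells, which carried a Plac8 UMI in 88.1% of cases, against 11.7% of C1q-high cells. Free RNA in the droplets can add to such shares. Of the 12 C1q-low cells that resembled B or plasma cells, 5 (41.7%, exact 95% interval 15.2% to 72.3%) held a Plac8 UMI at a summed level of 385 CPM, with median depths of 3867 UMIs there, 3104 in all C1q-low and 4171 in C1q-high cells. The share and level in C1q-high cells, 11.7% and 97.6 CPM, were below those of these B or plasma-like cells. The 12 cells therefore do not set a floor from free RNA for the other droplets. Free RNA and expression by the cells themselves were not told apart in either group of cells. Single C1q-high cells held up to 34 Plac8 UMIs.

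Hp, Chil3 and Mcemp1 were sparser than Plac8 but divided between the classes in the same way. Hp, the gene of haptoglobin, had 489 UMIs in 128 of the 943 cells, 84.5% of them in C1q-low cells. Chil3 had 346 UMIs in 81 cells (85.3% in C1q-low) and Mcemp1 190 UMIs in 99 cells (78.4% in C1q-low). For these 3 genes the share of C1q-low cells with a UMI was 53.6%, 32.7% and 42.3%, and that of C1q-high cells 3.24%, 2.68% and 2.54%. Of the 12 B or plasma-like cells, 1 held an Hp UMI and none held one of Chil3 or Mcemp1, and 0 of 12 leaves an upper exact 95% bound of 26.5%.

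Lyz2 and Lyz1, in contrast, were lysozyme genes of both classes. Lyz2 was detected in 936 of 943 cells, and C1q-high cells held 69.96% of its 76879 UMIs. Its level in retained C1q-high cells was close in all mice, 16470.4 and 16187 CPM in DEP and 14750.0 and 16081 in PBS mice. Of the 1155 Lyz1 UMIs, 74.1% lay in C1q-high cells, where retained cells held 402 and 264 CPM in DEP and 259.8 and 269 in PBS mice. In 12 B or plasma-like cells Lyz2 was found in 9 at 1990.1 CPM, and Lyz1 in 1.

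**Figure D1:**
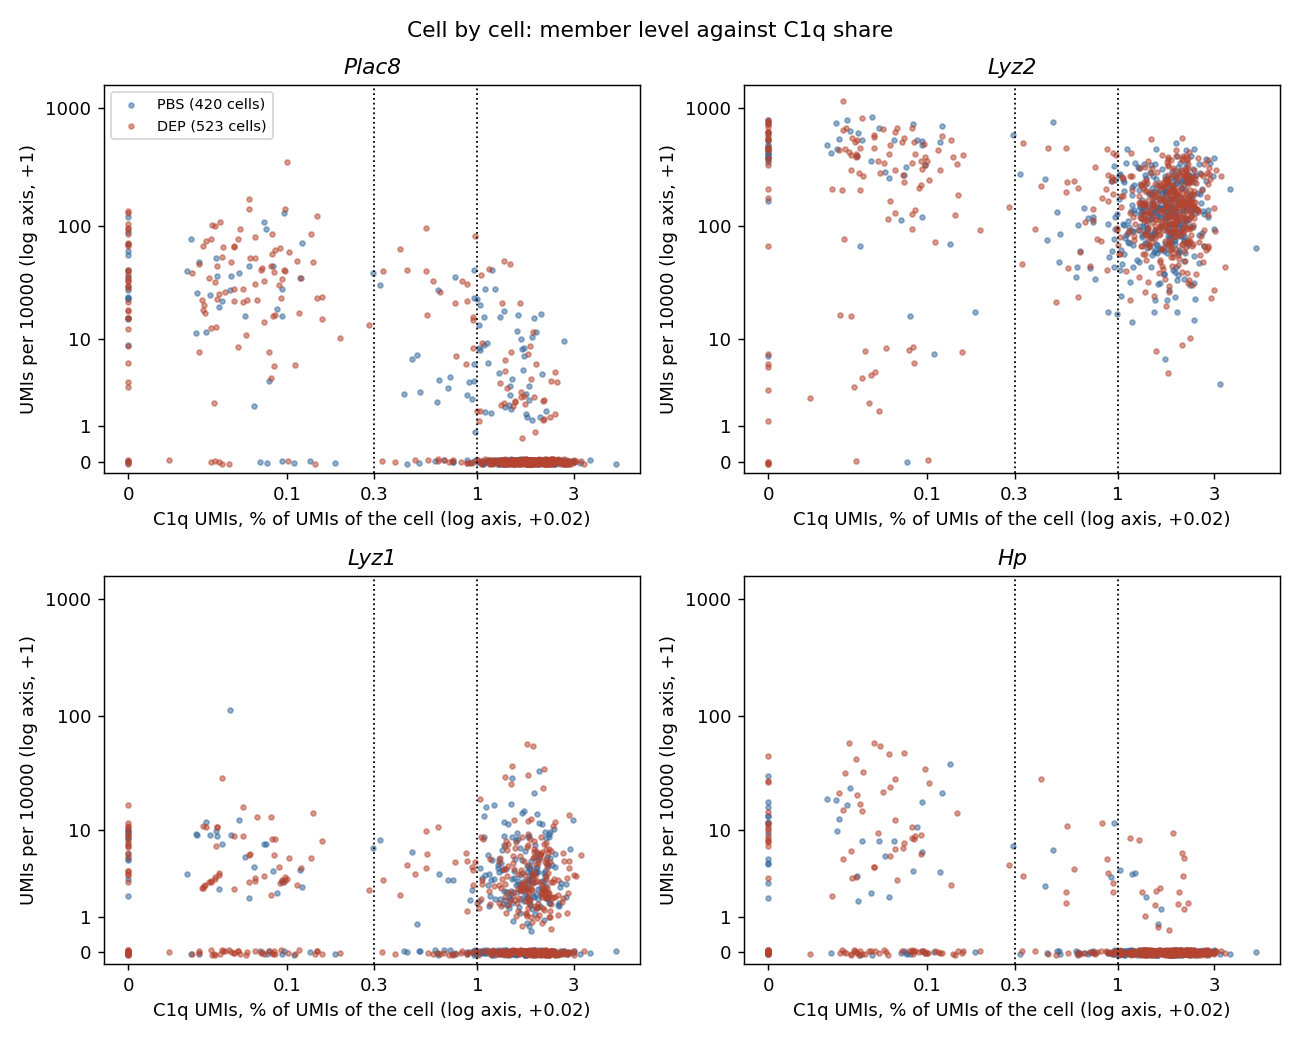
Each point is 1 of the 943 cells, with the share of C1qa, C1qb and C1qc in its UMIs (%, log axis with 0.02 added) against its level of Plac8, Lyz2, Lyz1 or Hp (UMIs per 10000 UMIs, log axis with 1 added); blue cells are from PBS mice, red cells from DEP mice, and dotted lines mark 0.3% and 1%. Plac8 and Hp are mostly at 0 to the right of 1%, where 11.7% and 3.24% of cells held a UMI, while Lyz2 was found in all 710 C1q-high cells.

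Upon DEP exposure, Plac8, Hp and Mcemp1 were higher over all retained cells, and the 2 lysozymes and Chil3 did not pass the test. Plac8 read 1677 and 1337 CPM upon DEP, against 436 and 519.8 with PBS, a log2 fold change of 1.60 ± 0.16. Hp read 179 and 346 against 88.6 and 114 (1.34 ± 0.26), and Mcemp1 101 and 114 against 25.1 and 44.1 (1.56 ± 0.28). The DEP and PBS mice did not overlap for any of these 3 genes. Between the same mice 0.275% of 5099 genes were called and 38.7% did not overlap. These values chose the members, and nothing is read from them.

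Lyz2 read 21716 and 22558 CPM with DEP and 17905 and 20082 with PBS (0.17 ± 0.11), and Lyz1 412 and 309 against 291 and 344 (0.12 ± 0.18). Chil3 read 94.3 and 188 against 83.6 and 122 (0.43 ± 0.27). Lyz1 and Chil3 overlapped between the groups, and Lyz2 did not.

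The values of Hp and Mcemp1 depended on which cells were retained. Over all 943 cells 0.0179% of 5582 genes were called, which was Plac8 alone, at 919.7 and 779.8 in DEP against 417 and 389 in PBS mice, a log2 fold change of 1.07 ± 0.13. Mcemp1 read 51.4 and 63.7 against 22.7 and 31.9 (1.05 ± 0.26), and Hp 96.6 and 185 against 72.3 and 78.9 (0.92 ± 0.28), and neither was called. Both were still higher in each DEP mouse than in each PBS mouse, as 36.8% of genes lay on 1 side over all cells. The members were chosen on this contrast, and these calls are no support for them. In retained cells none of the 3 was called after thinning to 1000 UMIs. Leaving out DEP mouse 15, PBS mouse 2 or PBS mouse 3 ended the call of Hp, and leaving out PBS mouse 2 that of Mcemp1.

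Saa3 and Trem1 were too rare to test. Saa3 had 115 and 89 UMIs in the DEP mice and 2 and 0 in the PBS mice over all cells, a ratio of 85.9 with the mice of a group pooled. That ratio says nothing of the spread between mice, and UMIs of the same cell are not independent, so no interval is given. The Saa3 UMIs came from 12 of 943 cells, and 5 cells held 96.1% of them. A single C1q-low cell of mouse 15 held 88, and 4 cells of mouse 14 held 35, 33, 22 and 20, of which 2 were C1q-low, 1 middle and 1 C1q-high. Without the first of these cells mouse 15 fell to 0.744 CPM, a level below that of PBS mouse 2 at 2.68. Cells rich in this acute-phase transcript were thus seen in both DEP mice, 1 and 4 of them, while no PBS cell held more than 1 UMI. Trem1 had 6 and 17 UMIs in the DEP mice and 4 and 0 in the PBS mice, spread over 21 cells with at most 2 UMIs each. By mouse it read 6.30 and 12.6 CPM against 5.35 and 0, so that DEP mouse 14 and PBS mouse 2 lay close together.

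**Figure D2:**
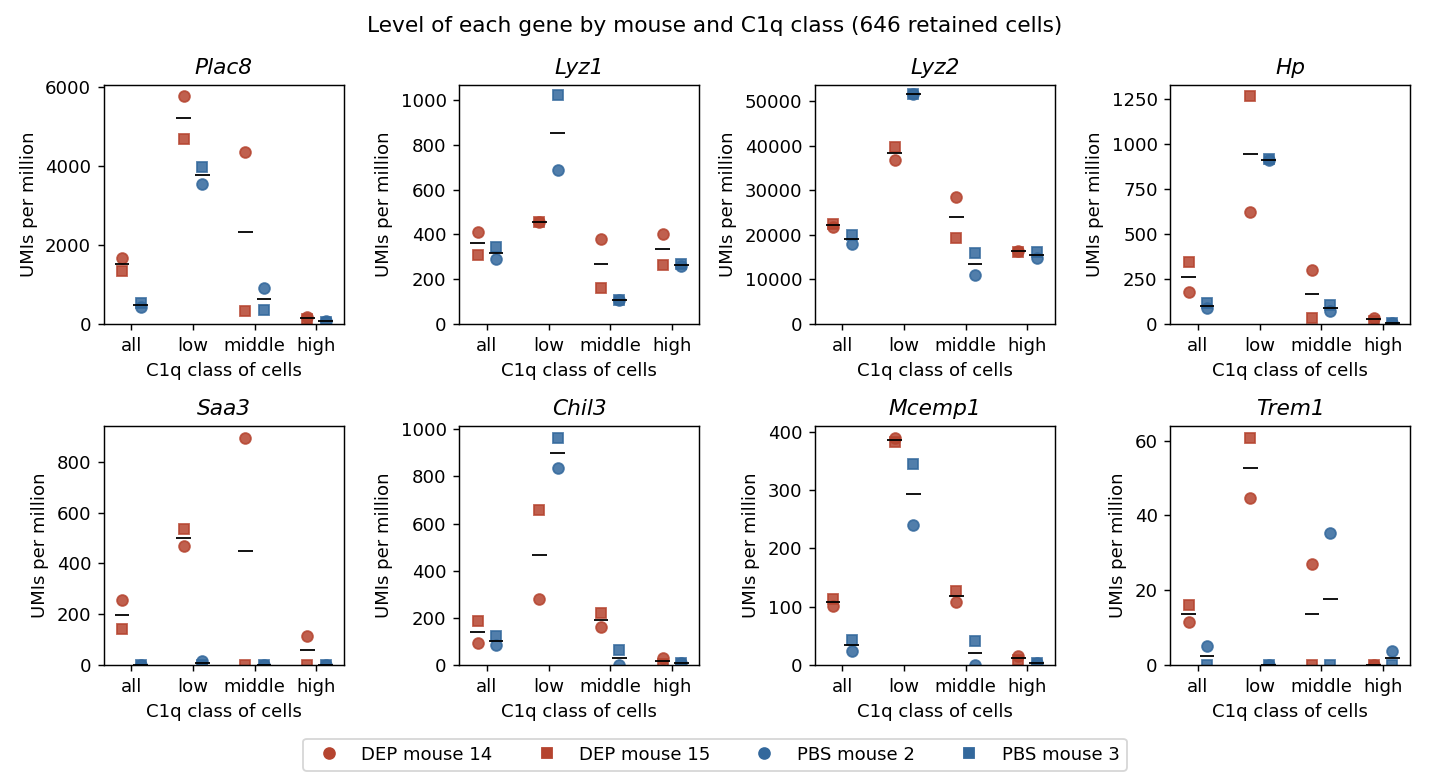
Level of each gene in CPM (linear axis) for all retained cells and for the C1q-low, middle and high classes; red symbols are DEP mice 14 and 15, blue symbols PBS mice 2 and 3, and bars the mean of 2 mice. In C1q-low cells Plac8 lies higher in both DEP mice (5761 and 4669.9 against 3540.1 and 3983) and Lyz1, Lyz2 and Chil3 lie lower in both.

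C1q-low cells were a larger share of the DEP libraries, which by itself raises the sum of any gene of these cells. They were 24.5% and 29.9% of retained cells in DEP mice 14 and 15 and 11.2% and 14.8% in PBS mice 2 and 3 (27.2% ± 3.82 against 13% ± 2.6, SD, n = 2). The difference of 14.3 points had a p of 0.333 in an exact two-sided permutation test, the smallest that 2 against 2 mice can give. Over all 943 cells the shares were 19.6% and 24.0% against 11.5% and 12.7%, a difference of 9.65 points. It was 7.85 points over the 914 cells. The direction was the same in all 3 sets. The rule that left cells out took 68 and 107 C1q-high cells from DEP mice 14 and 15, and 25 and 44 from PBS mice 2 and 3. Of C1q-low cells it took 10 and 21 against 4 and 3. The shares in retained cells, and the parts from shares given below for these cells, carry this uneven removal.

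To part this shift from changes inside the classes, the difference between each DEP and each PBS mouse was divided exactly into a part from the classes' shares of UMIs and a part from the levels within the classes, and averaged over the 4 pairs of mice. For Plac8 in retained cells, 612 of the 1029 CPM came from the shares (497 to 695 over the pairs) and 417 from levels (182 to 660). Of the latter, 236 came from C1q-low, 121 from middle and 60.2 from C1q-high cells. The part from shares was 59.4% in retained cells, 61.8% over all 943 cells (276 of 446) and 44.4% over the 914 cells (217 of 490). Both parts of Plac8 were above 0 for every pair of mice in each of these 3 sets. The pairs reuse the same 4 mice and Plac8 was chosen on this contrast, so nothing is read from the signs. In retained cells the part from middle cells was 226 and 291 for the pairs of DEP mouse 14, and −29.3 and −2.17 for those of DEP mouse 15. The part from C1q-low cells alone was 35.0 over all 943 cells, with a range over the pairs of −21.0 to 89.2.

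For Hp 129 of 161 CPM came from the shares in retained cells (79.9%), 90.7% over all 943 cells and 69.6% over the 914 cells. For Mcemp1 the shares gave 44.6 of 72.9 CPM in retained cells (61.1%), 66.2% over all 943 cells, 49.96% over the 914 cells and 40.9% after thinning. Lyz2 gained 3981 from the shares and changed by −2220.5 from C1q-low cells, with 673 and 711 gained from middle and C1q-high cells, for a total of 3144. Its levels within the classes came to −837 on average, with a range over the pairs of −1960 to 321 that held 0. Chil3 gained 92.6 from the shares and changed by −54.4 within the classes (−85.7 to −24.4), of which −70.3 came from C1q-low cells. Lyz1 gained 46.5 from the shares, changed by −67.8 from C1q-low cells and gained 53.7 from C1q-high and 10.9 from middle cells. Within the classes this left −3.19 (−107 to 96.2), and the Lyz1 total of 43.3 ranged from −34.1 to 121 over the pairs. For Saa3 160 of 197 and for Trem1 7.40 of 11.3 came from within the classes, on the few cells described above.

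**Figure D3:**
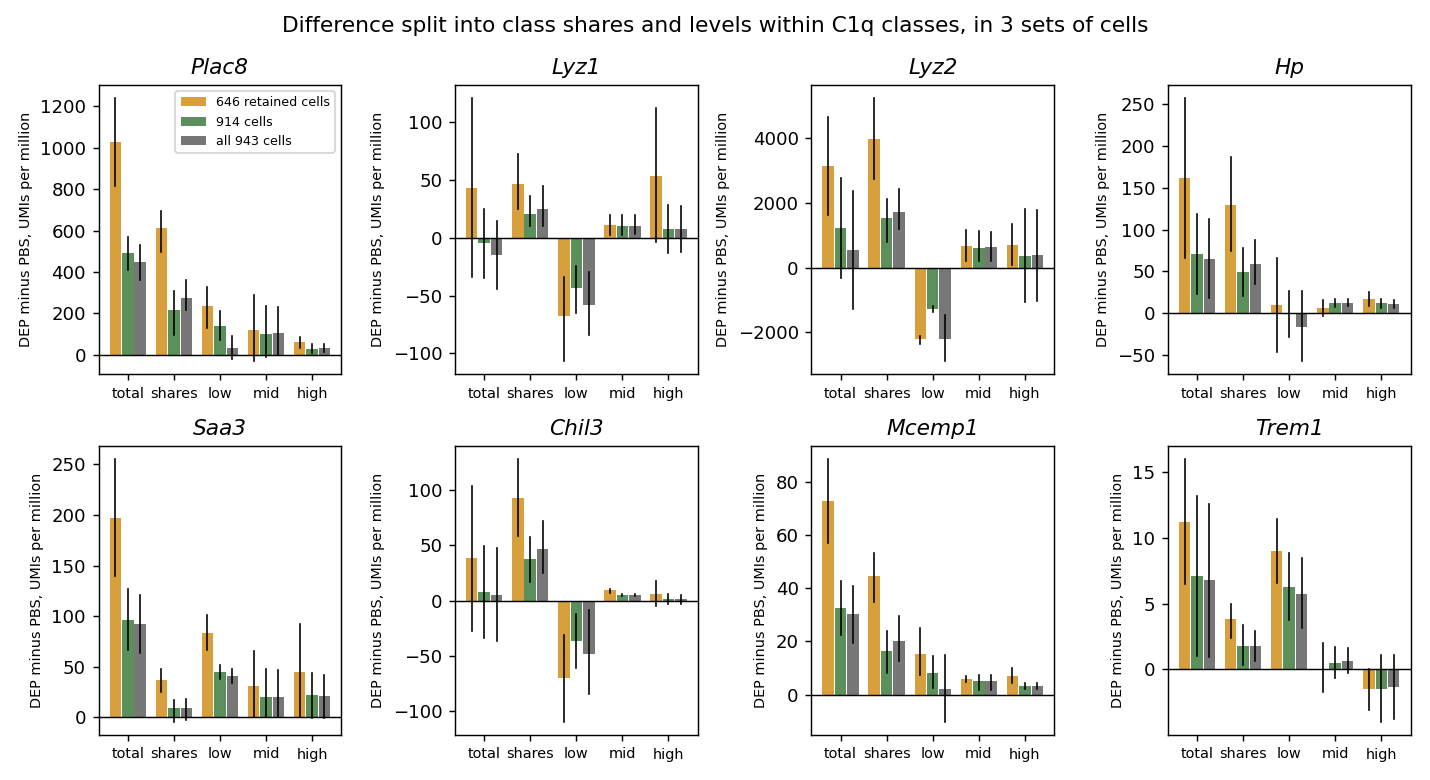
DEP minus PBS in CPM, split into the total, the part from the shares of the C1q classes and the parts from levels within C1q-low, middle and high cells; bars are means over 4 pairs of a DEP and a PBS mouse, lines their range, and colours the 646 retained, 914 and all 943 cells. For Plac8 the bar for shares stands at 612, 217 and 276 in these sets, and for Lyz2 the bar for C1q-low cells is below 0 in all 3.

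Within C1q-low cells the members moved in different directions, and none passed the test in retained cells, where 0.218% of 4589 genes were called. The test there had few cells to work with, 27 and 59 in DEP mice 14 and 15 and 19 and 25 in PBS mice 2 and 3. Lyz2 stood at 36919.8 and 39736 CPM for DEP and 51656 and 51626 CPM for PBS, a log2 fold change of −0.33 ± 0.16. Lyz1 stood at 457 and 456 against 686 and 1022 (−0.84 ± 0.28). Both lysozymes were thus lower in each DEP mouse, while their levels over all cells were not.

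Chil3 was lower in both DEP mice as well, at 279 and 657 against 834 and 964 (−0.80 ± 0.30). Single cells held 16 of its 45 UMIs in PBS mouse 2 and 31 of 84 in PBS mouse 3. Without the top cell of every mouse, Chil3 read 128 and 466 against 426 and 584 in the full table, and the groups overlapped. Plac8 was on the other side, at the levels given above (0.56 ± 0.20), and so was Mcemp1, at 390.0 and 383 against 241 and 344 (0.45 ± 0.34). Hp overlapped between the groups, with 624 and 1265 against 908 and 918 (0.17 ± 0.27). In these cells 35.1% of all genes did not overlap between the groups, 18.6% with lower and 16.4% with higher values upon DEP. Of the 6 members with UMIs in both groups, all but Hp lay on 1 side, Lyz1, Lyz2 and Chil3 below and Plac8 and Mcemp1 above. Trem1 entered the test only through the DEP mice and is not counted. Chil3 was called in the fit without DEP mouse 15.

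Trem1 was found in C1q-low cells of the DEP mice alone in this class, with 4 and 10 UMIs in retained cells against 0 and 0. The DEP mice 14 and 15 read 44.6 and 60.8 CPM, where 3 counts would be 55.6 and 34.4 CPM in PBS mice 2 and 3. The level of DEP mouse 14 was thus not above the floor of PBS mouse 2, and no fold is given. Trem1 UMIs were in 8.33% of the 168 C1q-low cells of the full table. Saa3 stood at 42 and 88 UMIs against 1 and 0. The 88 UMIs of mouse 15 were those of 1 cell with a C1q share of 0.280%, just under the limit of 0.3%, and with a limit of 0.2% the part of Saa3 from C1q-low cells was 34.2 CPM in place of 83.4.

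Values in C1q-low cells depended on which other cell types were left out. The full table held 37 and 80 C1q-low cells of the DEP mice, of which 2 and 6 were B or plasma-like, and 23 and 28 of the PBS mice, of which 2 and 2 were. In that table Lyz2 read 25178 and 30927 against 41469.6 and 49231 (−0.47 ± 0.16). In the 914-cell set, which kept 30 and 67 C1q-low cells of the DEP and 19 and 26 of the PBS mice, it read 38644 and 39454 against 51656 and 51276 (−0.35 ± 0.13). Lyz1 then read 424 and 438 against 686 and 1017 (−0.96 ± 0.26) and was called, in a set where 0.717% of 4460 genes were. Plac8 read 5801 and 4535 against 3540.1 and 3917 (0.51 ± 0.17) and was not. In the full table Plac8 read 3906 and 3607 against 3209 and 3768, and the groups overlapped. Mcemp1 overlapped there too, at 230 and 290 against 181 and 315.

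The Lyz1 value of PBS mouse 3 rested on 1 cell, which held 54 of its 93 UMIs in C1q-low cells of the full table. When the top cell of every mouse was left out, Lyz1 read 227 and 327 in the DEP and 517 and 430 in the PBS mice. Without PBS mouse 3 the log2 fold change was −0.46. After thinning every cell to 1000 UMIs it turned to 0.38, with a UMI in 32.4% and 38.8% of the C1q-low cells of the full table in DEP and 21.7% and 28.6% in PBS mice. Cell by cell, Lyz2 held a median of 264 and 359 UMIs per 10000 in the DEP and 424 and 466 in the PBS mice over the full table.

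In C1q-high cells 0% of 5249 genes were called by edgeR and by DESeq2 alike, where 305 and 43 genes had a p under 0.05 before adjustment. Plac8 was higher in both DEP mice there, with a log2 fold change of 1.05 ± 0.26 in retained cells and 0.57 ± 0.21 over the full table, on 37 to 56 UMIs per mouse in retained cells. Single retained cells held 34 of the 52 UMIs of mouse 14 and 26 of the 56 of mouse 15. In PBS mice 2 and 3 the top cells held 7 and 15. Without the top cell of every mouse, Plac8 read 90.8 and 75.5 CPM against 77.3 and 57.0 over the full table, and the groups overlapped. These levels were under the 385 CPM of the 12 B or plasma-like cells, which do not set a floor from free RNA. It passed the threshold without PBS mouse 2 and without the filter on low counts, and in no other setting tried. Lyz1 and Lyz2 differed by 0.31 ± 0.20 and 0.08 ± 0.10. The other members had too few UMIs for a test, between 0 and 11 per mouse, except for 36 of Saa3 in mouse 14.

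Middle cells were few, 10 to 15 per mouse, and mouse 14 stood apart in them. Its 12 retained middle cells held Plac8 at 4338 CPM, against 319 in DEP mouse 15 and 921 and 358 in the PBS mice. Lyz2 followed the same order at the top, with 28550.5 in mouse 14 against 19420.3, 11052 and 15866.

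For both lysozymes the distance between the classes was smaller in each DEP mouse than in each PBS mouse. The share of all genes whose ratio parts the groups in this way was not counted. For levels in retained C1q-low cells it was 35.1%, and nothing is read from the separation. Lyz2 was 2.24 and 2.45 times higher in C1q-low than in C1q-high retained cells of the DEP mice, and 3.50 and 3.21 times higher in those of the PBS mice. For Lyz1 the ratios were 1.14 and 1.73 against 2.64 and 3.80. The difference of the DEP effect between the classes was −0.39 ± 0.17 for Lyz2, −1.07 ± 0.30 for Lyz1, −2.20 ± 0.66 for Hp and −1.44 ± 0.65 for Chil3 on the log2 scale, and −0.49 ± 0.27 for Plac8. The values of Hp and Chil3 rest on few UMIs in C1q-high cells, 2 to 11 and 2 to 10 per mouse. None of the 6 members tested was called, where 0.482% of 5185 genes were. In the fit without DEP mouse 15, Lyz1, Hp and Chil3 passed.

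**Figure D4:**
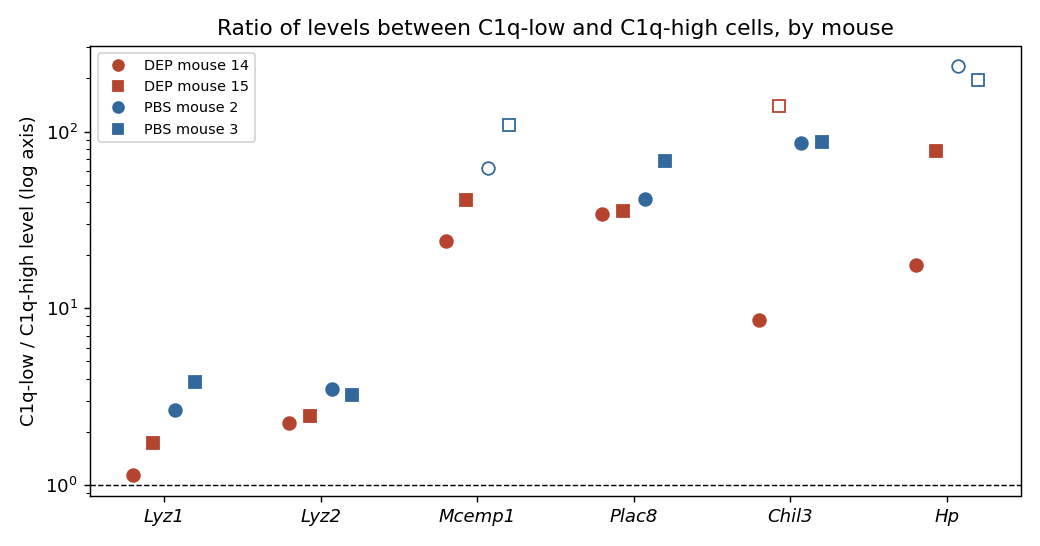
Ratio of the level in C1q-low to that in C1q-high retained cells (log axis; the dashed line marks equal levels) for the 6 members with enough UMIs, by mouse; open symbols rest on at most 3 UMIs in C1q-high cells. Lyz1 and Lyz2 lie between 1.14 and 3.80, with both DEP mice under both PBS mice, and Plac8 between 34.1 and 68.5.

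Among other antimicrobial and acute-phase genes no change upon DEP exposure passed the test. Of a list of 35 such genes 18 were analysed, and none of the 9, 11 and 9 tested in retained, C1q-low and C1q-high cells was called. Their median log2 fold changes were 0.08, 0.07 and 0.04, against −0.01, 0.07 and 0.00 over all genes. Between the classes, 4 of 9 tested were called higher in C1q-low cells and none lower, beside 7.14% of all genes called higher, with a median of 0.48. These were Slpi, an inhibitor of leukocyte proteases (7.32 ± 0.36), C3, the central complement protein (1.93 ± 0.41), Il1rn, the antagonist of the interleukin-1 receptor (0.93 ± 0.28), and Wfdc17 (0.82 ± 0.16). Il1rn was found in 19.0% of C1q-low and 21.1% of C1q-high cells of the full table. In PBS mice 2 and 3 it read 112 and 73.5 CPM in C1q-low against 92.0 and 64.6 in C1q-high cells. In DEP mice 14 and 15 it read 151 and 326 against 76.6 and 118. Over the full table Cp, the gene of ceruloplasmin, was called lower (−3.40 ± 0.93).

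Genes of the TREM family and regulators of acute-phase genes, 19 of a list of 20 analysed, were likewise not called upon DEP exposure in retained, C1q-low or C1q-high cells. The 13, 15 and 13 tested genes had medians of −0.12, 0.07 and −0.17 in retained, C1q-low and C1q-high cells. In C1q-low against C1q-high cells, 2 of 13 were called higher and 3 lower, beside 17.6% of all genes called in either direction. Higher were Cebpb (1.20 ± 0.40), a C/EBP factor that drives acute-phase genes, and Tyrobp (0.49 ± 0.12), the adaptor of Trem1. Lower were the factor Cebpa (−3.47 ± 0.69), the lipid receptor Trem2 (−1.53 ± 0.29) and the cytokine inhibitor Socs3 (−1.01 ± 0.16). Over the full table neither Cebpb nor Tyrobp was called, and of 14 tested genes 1 was called higher (Treml4, 1.56 ± 0.46) and 4 lower. There DEP mouse 14 read lower in C1q-low than in C1q-high cells for both, Cebpb at 19.7 against 27.7 CPM and Tyrobp at 2304 against 2377. In the other mice both were higher in C1q-low cells.

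Of 15 tested monocyte markers 1, Ly6c2, was called higher in DEP retained cells (1.37 ± 0.26), and the list had a median of 0.72. In the full table Ly6c2 read 179.5 and 116 CPM over all cells of the DEP and 58.9 and 76.4 of the PBS mice, and was not called. In C1q-low cells none of the 16 monocyte markers was called higher, with a median of −0.06, and F13a1, the gene of coagulation factor XIII, was called lower (−1.88 ± 0.35). No gene was called in these cells with DESeq2, with C1q limits of 0.2% and 1.5% or without DEP mouse 14, F13a1 included (39, 271 and 135 genes with a p under 0.05 before adjustment).

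The genes most like the members were sought by the mean over the 4 mice of the correlation across retained cells, among 5099 genes, as a description, since cells of a mouse share library and depth. Plac8 was closest to Tmsb10 (0.68), Ifitm3 (0.66) and S100a6 (0.66). Hp was closest to Plac8 (0.63), Ifitm6 and S100a4 (0.58 each). Mcemp1 was closest to Hp (0.56), Plac8 (0.51) and Ifitm6 (0.47), and Chil3 to Plac8 (0.52), Gm9733 (0.47) and Mcemp1 (0.45). Members thus appeared among each other's closest genes. Their choice by level in monocyte-like cells favours this across cells of all classes, and nothing is read from it.

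Lyz1 and Lyz2 were closest to each other (0.48), ahead of S100a6 (0.29) and Ccl9 (0.28) for Lyz1 and of Gm9733 (0.45) and Hp (0.45) for Lyz2. Reads divided between the paralogs can add to their correlation, and that part was not tested. Among the 168 C1q-low cells of the full table, Plac8 and Lyz2 correlated at 0.73 (0.69 to 0.74 in the 4 mice), and Plac8 and Hp at 0.34 (0.14 to 0.48). These cells include 38 that were left out of the tests, among them the 12 B or plasma-like cells. Those 12 were low in Plac8, Lyz2 and Hp (385, 1990 and 13.3 CPM, against 3664, 33804 and 732 in all C1q-low cells). A mixture of this kind can raise the correlations by itself, and its part was not tested.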

How the data were processed

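Single cells of the colonic lamina propria were sequenced from 4 mice, 1 library each. Reads were mapped by the authors to mm10 (Cell Ranger, STAR 2.6.1a, Ensembl annotation) and the libraries joined as they were. After removing droplets with few UMIs or genes, or with none or too many mitochondrial UMIs, the authors deposited 1 table of raw UMI counts for 943 cells and 12596 genes, 20 of them without a symbol and not named here. Their doublet search marked no cell and none was run here.

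Members, lists and classes were chosen with earlier results of these data known. The UMI counts were summed per mouse and class, and tested with edgeR 4.0.16 in R 4.3.3 (TMM, quasi-likelihood, Benjamini-Hochberg adjusted p of at most 0.05), for genes over 1 CPM in 2 libraries with a UMI in 5% of the cells. The mouse was a block between classes. DESeq2 1.42.0 was an alternative, as were the likelihood ratio test, no filter, all cells, other C1q limits, cells thinned to 1000 UMIs and each mouse left out. Log2 fold changes carry SE. Shares were compared with scipy 1.17.1 in Python 3.11.15. The fits were tested on simulated data. Named genes are the members, up to 3 called genes per list, direction and comparison, and the 3 genes most like each member. Wfdc17, Ly6c2 in the full table and the neutrophil and dendritic cell markers were named outside this rule after their values were seen. Intervals and floors cover counting error alone. The groups share no mouse. Symbols and positions were matched by identifier to the GENCODE annotation of GRCm38.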

Additional observations from a re-analysis of the deposited data

Results flagged for a closer look

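F13a1, the monocyte marker that encodes a subunit of coagulation factor XIII, differed between the classes in its response to DEP. The log2 difference of the DEP effect, C1q-low minus C1q-high, was −2.71 ± 0.44 in retained cells (adjusted p = 2.08e-06, edgeR's interaction test) and −2.35 ± 0.43 over all 943 cells (adjusted p = 0.00792). In C1q-low cells of the full table F13a1 read 65.7 and 184 CPM upon DEP, against 419 and 693 with PBS, whereas C1q-high cells held 54.1 and 71.6 against 21.8 and 72.6. The DEP values in C1q-low cells rested on 10 and 45 UMIs. No gene passed this interaction test with DESeq2 or after thinning cells to 1000 UMIs, F13a1 included (49 and 112 genes had an unadjusted p under 0.05).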

How the results depend on the processing

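Depth and cell number limit what could be seen, in C1q-low cells among others. Other tests, filters and sets of cells moved the counts of called genes. Over retained cells 14 genes were called, 3 with DESeq2, 33 with the likelihood ratio test, 80 without filter, 1 over all cells of the table, 0 after thinning (148 at an unadjusted p under 0.05), 1 over the 914 cells and 6 to 49 with 1 mouse left out (6 without PBS mouse 2, 47 and 49 without DEP mouse 15 or 14). In C1q-low cells 10 were called, 0 with DESeq2 (39 at an unadjusted p under 0.05), 21 with the likelihood ratio test, 32 without filter, 3 after thinning, 0 with C1q limits of 0.2% and 1.5% (271), 32 over the 914 cells and 0 to 21 with 1 mouse left out (0 without DEP mouse 14, 135 at an unadjusted p under 0.05, and 21 without PBS mouse 2). In C1q-high cells 0 became 6, 37, 1 and 3 with the likelihood ratio test, no filter, thinning and the other limits, and 8 to 29 with 1 mouse left out. Between the classes 912 became 459 with DESeq2 and 369 after thinning, and 657 to 771 with 1 mouse left out. The DEP effect differed between the classes in 25 genes, 0 with DESeq2, 6 over all cells, 0 after thinning and 15 to 22 with 1 mouse left out.

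The difference in the share of C1q-low cells, 14.3 points, was 9.65 over all cells, 7.85 over the 914 cells and 11.6 to 17.0 with 1 mouse left out. The part of Plac8 from shares, 612 CPM, was 276 over all cells, 505 with the other limits, 217 over the 914 cells and 558 to 665 with 1 mouse left out. The share of C1q-low cells with a Plac8 UMI was 93.8% in retained cells and 88.1% over all cells. The cause of these moves was not tested. No paired analysis was possible because the groups compared share no replicate number.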
